A study of Mus musculus with 2 samples.

Results

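The members of this set are 9 genes of fibroblast growth factor (FGF) signaling, 5 ligands (Fgf4, Fgf5, Fgf8, Fgf15 and Fgf2) and 4 receptors (Fgfr1, Fgfr2, Fgfr3 and Fgfr4). They were chosen by gene symbol, and all 9 were among the 33963 genes of the count table. Their reads were followed in single cells during the return of primed mouse epiblast stem cells toward a naive state.

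FGF ligands bind receptor tyrosine kinases together with heparan sulfate chains on the cell surface, and the activated receptors signal through adaptors such as Frs2 and Grb2 to RAS and the kinase ERK. In mouse embryonic stem cells Fgf4 is the main ligand that the cells make themselves, and ERK signaling downstream of it moves naive cells toward lineage commitment. Primed epiblast stem cells are kept in culture with added FGF2 and Activin A, and Fgf5 is widely used as a marker of the post-implantation epiblast. Fgf8 acts in the primitive streak and in patterning centres of the embryo, and Fgf15 is an endocrine-type ligand that is also made in the embryonic nervous system.

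Populations at 5 stages were compared, all of strain 129/Ola per the labels. The naive population was mESCs of the Rex1-GFP line, and the primed population was mEpiSCs of the Oct4GIP line, which had been grown on mouse embryonic fibroblasts (MEF) with FGF2 and Activin A. Primed cells were then treated with AICAR, an activator of AMP kinase, together with LIF until day 8 (d8) or day 16 (d16), and reverted cells were kept for 10 further passages in 2iL (d16+10p), a medium with LIF and 2 inhibitors, of which 1 blocks MEK, the kinase above ERK. The Rex1-GFP and Oct4GIP lines each carry a reporter transgene, and line and pluripotency state cannot be told apart in any comparison of naive with other cells. Per the study's methods, naive mESCs were also kept in 2iL. Naive and d16+10p cells thus shared a MEK inhibitor that the primed, d8 and d16 cells did not have. Medium and state cannot be told apart in comparisons between these 2 sides. Each population was present once, by its own antibody tag, in a single pool of cells that gave 1 library, so that no difference has a replicate check and no test could be made. Every interval below is a 95% counting interval, exact Poisson for a level and exact binomial for a share. A level is the sum of a gene's reads over a group of cells per 1000000 reads of that group (CPM), and levels of different genes are not compared with each other.

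The table held 307121033 reads in 17720 cells, and no cell name occurred more than once. The labels give 500 collected cells each for the naive and primed populations, 9000 each for d8 and d16, and 1000 for d16+10p. In the data, 801 cells bore the naive tag, 1826 the primed tag, 9627 that of d8, 4315 that of d16, and 1151 that of d16+10p. More cells thus bore the naive, primed, d8 and d16+10p tags than had been collected, and only 415 of the primed-tagged cells lay in the cluster where Pou5f1 (Oct4) was high and the primed tag prevailed. For this reason the naive, primed and d16+10p populations were each compared through such a home cluster, with 512, 415 and 880 cells. The d8 population has no home cluster and was used whole. Per the study's methods, treatment to d8 and d16 was on MEF feeders, so that d8 and d16 groups can hold feeder cells. The d16 population was split at 1000 CPM of Dppa5a, a naive marker, into 1278 Dppa5a-high and 3037 Dppa5a-low cells. Of the Dppa5a-high cells, 1137 lay in the Pou5f1-high d16 home cluster, and 295 of the 4315 d16 cells had between 500 and 2000 CPM of Dppa5a. The markers bore out the home labels: all 6 naive markers were at least 2-fold lower in the primed home cluster than in the naive home cluster, and 4 of the 6 primed markers were at least 2-fold higher.

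The 9 genes lie on 6 chromosomes in GRCm38.p6 as annotated by RefSeq. Fgf4 (chromosome 7, 144861386 to 144865245) and Fgf15 (chromosome 7, 144896532 to 144900953) are close neighbours, with 31286 bases between them. Fgfr2 is on the same chromosome (130162451 to 130266808). Fgf5 (98254184 to 98277033) and Fgfr3 (33721724 to 33737068) lie on chromosome 5, Fgf2 on chromosome 3 (37348477 to 37410106), Fgfr1 on chromosome 8 (25518759 to 25575718), Fgfr4 on chromosome 13 (55152818 to 55168759) and Fgf8 on chromosome 19 (45736491 to 45742941). Nudt6 overlaps Fgf2 on the opposite strand, Fgf15, Fgfr1 and Fgfr3 also overlap antisense genes, the longer Ensembl model of Fgfr2 (130162451 to 133123350) overlaps many genes on both strands, and it is not stated whether strand was used in counting. Nudt6 was low in every population, between 1.17 CPM in the naive home cluster and 1.81 CPM in d8.

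Promoter sequences from RefSeq (GRCm38.p6), from 250 bases before to 50 bases after the annotated start, were matched for 6 of the 9 genes. Those of Fgf4, Fgf5 and Fgf2 are shown because the 3 genes were highest in 3 different kinds of cells. Capitals mark the GC box GGGCGG or its reverse complement and the TATA motif TATAAA.
Fgf4, chr7:144861136-144861435, plus strand: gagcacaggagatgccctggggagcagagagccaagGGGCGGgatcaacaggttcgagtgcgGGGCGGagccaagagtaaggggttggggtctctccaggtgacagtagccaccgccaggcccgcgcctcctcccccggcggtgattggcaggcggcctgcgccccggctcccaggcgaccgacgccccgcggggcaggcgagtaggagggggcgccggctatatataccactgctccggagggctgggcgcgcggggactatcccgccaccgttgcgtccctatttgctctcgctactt
Fgf5, chr5:98253934-98254233, plus strand: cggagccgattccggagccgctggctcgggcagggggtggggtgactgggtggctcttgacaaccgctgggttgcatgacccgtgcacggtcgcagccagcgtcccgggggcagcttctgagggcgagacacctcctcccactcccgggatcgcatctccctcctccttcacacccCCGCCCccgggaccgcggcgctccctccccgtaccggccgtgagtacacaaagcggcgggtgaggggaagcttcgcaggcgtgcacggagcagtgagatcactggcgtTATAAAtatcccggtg
Fgf2, chr3:37348403-37348702, plus strand: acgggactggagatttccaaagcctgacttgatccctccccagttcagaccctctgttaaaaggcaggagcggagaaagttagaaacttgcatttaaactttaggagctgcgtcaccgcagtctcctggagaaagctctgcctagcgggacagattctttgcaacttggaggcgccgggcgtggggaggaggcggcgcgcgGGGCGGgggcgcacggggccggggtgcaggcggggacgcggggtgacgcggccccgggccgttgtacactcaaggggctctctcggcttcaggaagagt
A GC box in either orientation was found 2 times for Fgf4 and 1 time each for Fgf5 and Fgf2. Of 32851 promoters of this length, 35.7% held a GC box. TATAAA was found for Fgf5 and not for Fgf4 or Fgf2, and 13.6% of all promoters held it on either strand. The octamer ATTTGCAT, the ETS core CCGGAAG, the E-box CACGTG and the SOX core ACAATG were searched on both strands as well, which 1.74%, 8.86%, 7.15% and 12.6% of promoters held, and none was found in these 3. The promoters had 28, 29 and 24 CpG dinucleotides for Fgf4, Fgf5 and Fgf2, where the median over all promoters was 7.

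Fgf4 was the ligand of the naive state. It stood at 44.9 CPM (41.3 to 48.7) in naive home cells and at 5.18 CPM (3.85 to 6.81) in the primed home cluster. In d8 it was at 3.36 CPM (3.10 to 3.64). At d16 the Dppa5a-high cells had 32.0 CPM (29.6 to 34.5), whereas the Dppa5a-low cells had 2.43 CPM (1.94 to 3.0). After expansion in 2iL it was at 53.1 CPM (50.1 to 56.2) in the d16+10p home cluster. The naive home, d16 Dppa5a-high and d16+10p home cells thus formed a high set and the other 3 groups a low set, and no 2 neighbours in this order had overlapping intervals. The low set was near the level of cells that should lack the gene, since the macrophage-like cluster, named from macrophage markers, had 4.18 CPM (3.31 to 5.22).

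Shares of cells were compared after each cell was thinned to 5000 reads, because the median depth ranged from 8691 reads in d16 Dppa5a-low cells to 24068.5 in the d16+10p home cluster. Cells with fewer reads were left out, which were 6 of the naive home, 9 of the primed home, 755 of the d8, 40 of the d16 Dppa5a-high, 564 of the Dppa5a-low and 10 of the d16+10p home cells. A Fgf4 read was then found in 16.6% of naive home cells (13.5 to 20.1%), in 12% of d16 Dppa5a-high cells (10.2 to 13.9%) and in 22.1% of d16+10p home cells (19.4 to 25%). Before thinning these shares were 46.7%, 24.2% and 53.6%. Of the thinned macrophage-like cells 0.843% had a read, and their median depth was 17411 reads. The primed home cluster had 2.22% (1.02 to 4.17%), d8 1.36% (1.13 to 1.63%) and d16 Dppa5a-low cells 0.768% (0.463 to 1.2%). The shares of the high set thus lay above those of the low set, with no overlap of intervals. Within each set the order was that of the levels, but the intervals of neighbours overlapped.

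Within d16, Fgf4 was higher in each further band of Dppa5a. It was at 2.05 CPM (1.59 to 2.59) in the 2926 cells below 500 CPM of Dppa5a and at 11.6 CPM (6.65 to 18.9) in the 111 cells from 500 to 1000, just below the split. In the 184 cells from 1000 to 2000, just above it, Fgf4 was at 18.5 CPM (13.9 to 24.1), in the 556 cells from 2000 to 4000 at 26.1 CPM (22.9 to 29.6) and in the 519 cells from 4000 to 8000 at 43.3 CPM (39.0 to 48.0). The 2 bands beside the split had overlapping intervals. The interval of the highest of these bands overlapped that of the naive home cluster, whose cells were not split by Dppa5a. Over all naive home cells Dppa5a was at 2818 CPM, and the d16 band from 2000 to 4000 lay below their Fgf4 level. Only 19 cells were above 8000, too few for a level. Dppa5a defined the bands, and depth differed between them, with a median of 8721 reads in the lowest and 14658 in that from 4000 to 8000.

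**Figure D1:**
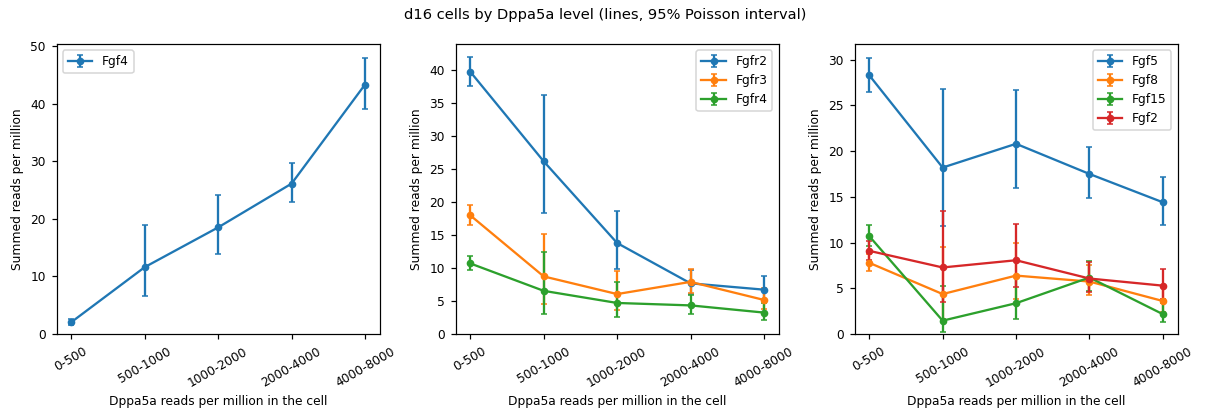
Summed level in CPM (y axis) of ligands and receptors in d16 cells grouped by the Dppa5a level of the cell in CPM (x axis), with 95% Poisson intervals as lines. Fgf4 goes from 2.05 to 43.3 CPM over the 5 bands, and Fgfr2 from 39.8 to 6.72 CPM.

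Fgf5, Fgf8 and Fgf15 were all higher in primed than in naive cells, but parted at d8. Fgf5 stood at 15.2 CPM (13.1 to 17.4) in naive home cells, at 48.7 CPM (44.5 to 53.3) in the primed home cluster and at 73.7 CPM (72.5 to 75) in d8. It was at 27.9 CPM (26.2 to 29.7) in d16 Dppa5a-low cells, at 16.8 CPM (15.0 to 18.6) in Dppa5a-high cells and at 14.7 CPM (13.1 to 16.3) in the d16+10p home cluster. The last 2 and the naive home cluster had overlapping intervals, which also overlapped that of the macrophage-like cluster at 16.4 CPM (14.6 to 18.3). Low Fgf5 values in naive and reverted cells were thus not above the level of cells that should lack it.

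Fgf8 was highest in the primed home cluster, at 60.5 CPM (55.7 to 65.6), against 4.14 CPM (3.10 to 5.42) in naive home cells. In d8 it was at 16.6 CPM (16.1 to 17.3), in d16 Dppa5a-low cells at 7.65 CPM (6.76 to 8.62), in Dppa5a-high cells at 4.91 CPM (4.0 to 5.96) and in the d16+10p home cluster at 3.56 CPM (2.82 to 4.44). The macrophage-like cluster had 5.04 CPM (4.07 to 6.17), so that by level only the primed home, d8 and d16 Dppa5a-low cells lay above this background. After thinning, 21.4% of primed home cells (17.5 to 25.7%) and 6.33% of d8 cells (5.84 to 6.86%) had a read, against 1.69% in the macrophage-like cluster (0.925 to 2.81%). The share of d16 Dppa5a-low cells, 2.26% (1.71 to 2.93%), overlapped that of the macrophage-like cluster. The top 1% of d16 Dppa5a-low cells held 60.1% of their Fgf8 reads.

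Fgf15, the neighbour of Fgf4, had the reverse pattern of Fgf4 in the home clusters. It was at 60.9 CPM (56.1 to 66.0) in the primed home cluster and at 2.73 CPM (1.90 to 3.8) in naive home cells. In d8 it was at 8.87 CPM (8.44 to 9.32), in d16 Dppa5a-low cells at 10.4 CPM (9.35 to 11.5), in Dppa5a-high cells at 4.09 CPM (3.27 to 5.06) and in the d16+10p home cluster at 3.25 CPM (2.54 to 4.09). The last 2, the naive home cluster and the macrophage-like cluster, at 4.13 CPM (3.26 to 5.16), had overlapping intervals. The top 1% of cells held 17.2% of the Fgf15 reads in the primed home cluster, 34.3% in the naive home cluster, 40.3% in the d16+10p home cluster and 44.7% in d16 Dppa5a-high cells. They held 51.9% in d8 and 66.8% in d16 Dppa5a-low cells.

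Fgf2, the ligand that is added to primed cultures, was not high in the primed cells themselves. It stood at 4.67 CPM (3.42 to 6.23) in the primed home cluster and at 5.78 CPM (4.54 to 7.26) in naive home cells. The d16 Dppa5a-high cells, at 5.97 CPM (4.96 to 7.12), and the d16+10p home cluster, at 4.55 CPM (3.71 to 5.53), had intervals that overlapped both. It was higher in d16 Dppa5a-low cells, at 9.02 CPM (8.05 to 10.1), and highest in d8, at 29.4 CPM (28.6 to 30.2). The macrophage-like cluster itself had 16.3 CPM (14.5 to 18.2) of Fgf2, so it gave no background for this gene.

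**Figure D2:**
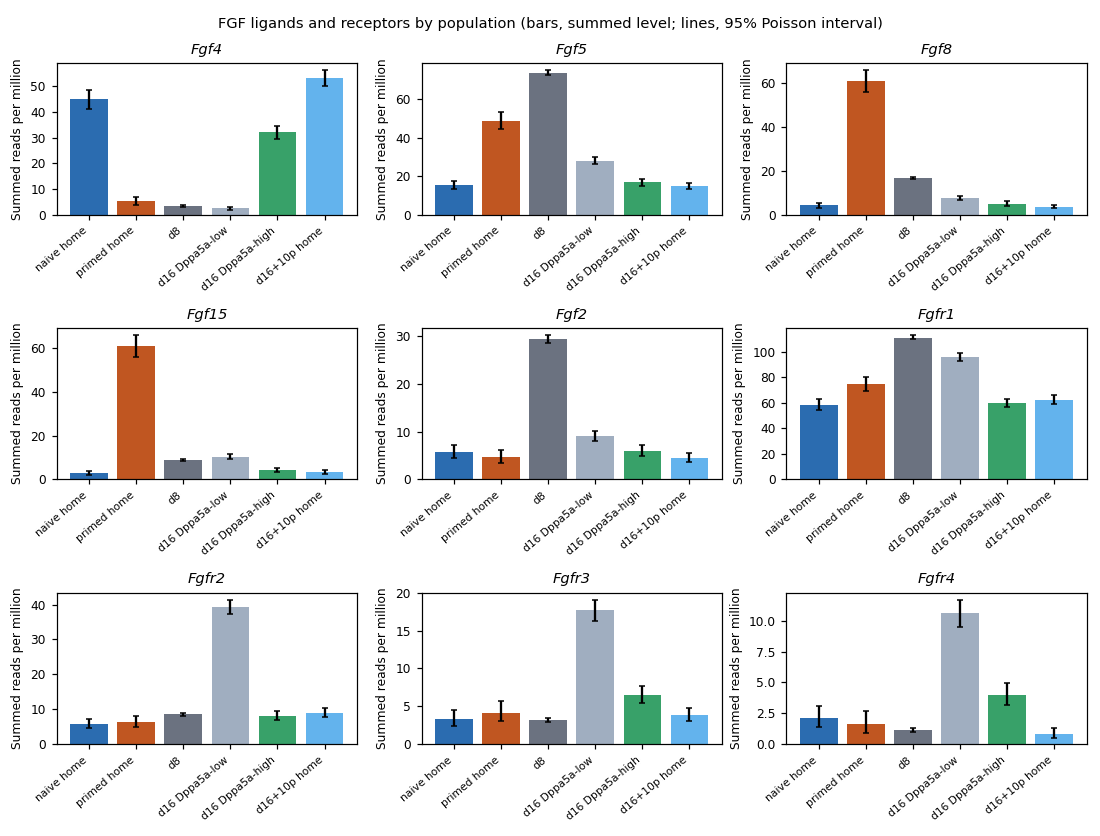
Summed level in CPM (y axis, from 0) of each of the 9 genes in 6 groups of cells (x axis), with 95% Poisson intervals as lines. Fgf4 is high in the naive home, d16 Dppa5a-high and d16+10p home cells, Fgf8 and Fgf15 in the primed home cluster, and Fgfr2, Fgfr3 and Fgfr4 in d16 Dppa5a-low cells.

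The ligands differed in which cells carried them. Clusters were made without the 9 genes and the other pathway genes, and 15 of the 18 clusters had at least 100 cells. Fgf5 was highest in the mesendoderm-like cluster, named from markers such as Cer1 and Lhx1, at 345 CPM (334 to 356), where 62.2% of thinned cells had a read. It was at 112 CPM (108 to 116) in cluster 2, which was led by Lefty1 and Lefty2 and was not given a cell type, and at 107 CPM (104 to 110) in the epithelial-like cluster. The primed-like cluster followed at 53.4 CPM (49.0 to 58.1). The intervals of cluster 2 and the epithelial-like cluster overlapped, and the mesendoderm-like cluster stood apart from all others.

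Fgf8 was also highest in the mesendoderm-like cluster, at 89.8 CPM (84.4 to 95.4). The primed-like cluster had 60.8 CPM (56.1 to 65.8), cluster 2 had 51.8 CPM (49.2 to 54.5) and the epithelial-like cluster 13.9 CPM (12.8 to 15.0). The other 11 clusters ranged from 3.62 to 7.78 CPM. For Fgf15 the order was different: the primed-like cluster led at 59.8 CPM (55.1 to 64.8), followed by cluster 2 at 50.1 CPM (47.6 to 52.7), whereas the mesendoderm-like cluster had only 11.8 CPM (9.94 to 14). The neural progenitor-like cluster had 14 CPM (12.4 to 15.8) of Fgf15.

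Fgf2 stood out in 1 cluster, though other clusters had reads as well. The fibroblast-like cluster 0 had 88.0 CPM (85.4 to 90.7), with a read in 26.5% of thinned cells, and the other 14 clusters had at most 16.3 CPM. A second fibroblast-like cluster, with high Col3a1, had 13 CPM (10.9 to 15.4). Fgf4 was at 49.3, 45.7 and 32.9 CPM in the 3 naive-like clusters and at most 5.03 CPM in the other 12.

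**Figure D3:**
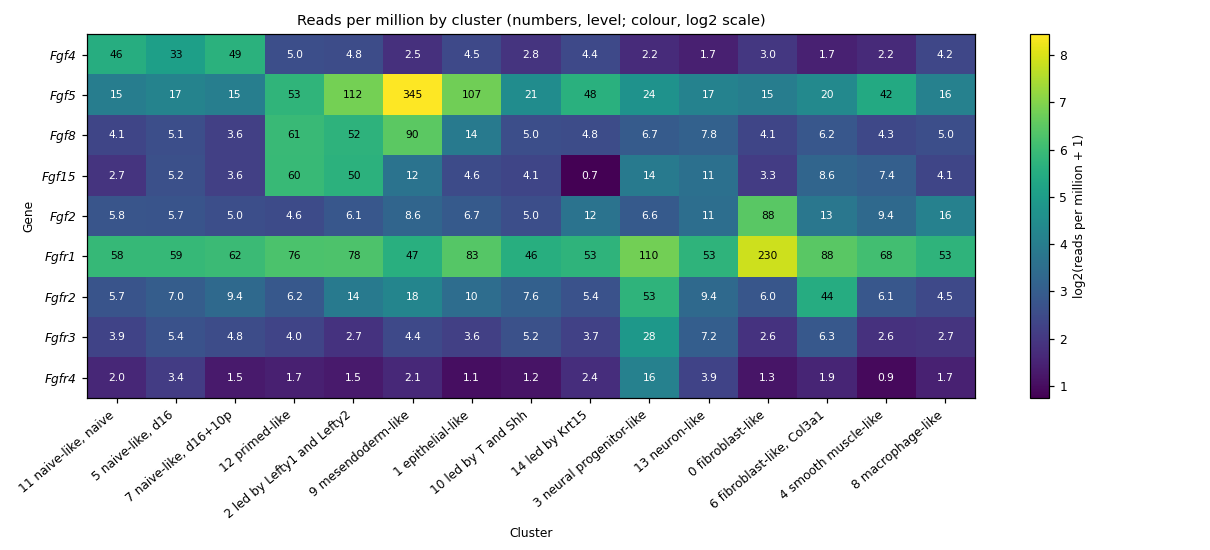
Level in CPM (numbers) of the 9 genes (rows) in the 15 clusters of at least 100 cells (columns); colour shows log2(CPM + 1). Fgf4 is high in the 3 naive-like clusters, Fgf5 peaks at 345 CPM in the mesendoderm-like cluster, Fgf2 (88.0 CPM) and Fgfr1 (230 CPM) in the large fibroblast-like cluster, and Fgfr3 and Fgfr4 in the neural progenitor-like cluster.

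Among the receptors, Fgfr1, the main receptor of the epiblast, had reads in every group. It stood at 58.5 CPM (54.4 to 62.9) in naive home cells, at 74.8 CPM (69.5 to 80.4) in the primed home cluster and at 111 CPM (110 to 113) in d8. It was at 95.7 CPM (92.5 to 99.0) in d16 Dppa5a-low cells, at 59.7 CPM (56.5 to 63.2) in Dppa5a-high cells and at 62.3 CPM (59.1 to 65.7) in the d16+10p home cluster. The 3 naive-type groups had overlapping intervals, and the primed home cluster lay above them. The macrophage-like cluster had 53.2 CPM (49.9 to 56.6) of Fgfr1, an interval that overlapped those of the naive home and d16 Dppa5a-high cells. After thinning, 17.3% of macrophage-like cells (14.8 to 20.1%) had a read, against 24.8% of d16 Dppa5a-high cells (22.4 to 27.3%). The naive home cluster had 22.5% (19.0 to 26.4%), which overlapped the macrophage-like share. Whether macrophage-like cells express Fgfr1 themselves was not tested. Across clusters Fgfr1 went from 46.4 CPM (42.3 to 50.7) in a cluster led by T and Shh to 230 CPM (225 to 234) in the fibroblast-like cluster 0.

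Fgfr2, which is expressed in primitive endoderm and in many epithelia, was low in the pluripotent cells. Naive home cells had 5.70 CPM (4.47 to 7.17), primed home cells 6.40 CPM (4.91 to 8.18) and d16+10p home cells 9.02 CPM (7.81 to 10.4). It was at 8.49 CPM (8.07 to 8.92) in d8 and at 8.13 CPM (6.95 to 9.46) in d16 Dppa5a-high cells. The Dppa5a-low cells stood apart at 39.3 CPM (37.2 to 41.4), with a read in 15.0% of thinned cells (13.7 to 16.5%) against 3.31% (2.39 to 4.47%) in Dppa5a-high cells and 2.65% in the macrophage-like cluster. Neighbours in the order of the other 5 groups had overlapping intervals.

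Fgfr3 and Fgfr4 were near background in most groups. Fgfr3 was at 17.7 CPM (16.3 to 19.1) in d16 Dppa5a-low cells, at 6.55 CPM (5.49 to 7.74) in Dppa5a-high cells and between 3.13 CPM in d8 and 4.16 CPM in the primed home cluster elsewhere. Fgfr4 was at 10.6 CPM (9.51 to 11.7) in Dppa5a-low cells, at 4.0 CPM (3.18 to 4.95) in Dppa5a-high cells and between 0.812 CPM in the d16+10p home cluster and 2.11 CPM in the naive home cluster elsewhere. The macrophage-like cluster had 2.74 CPM of Fgfr3 (2.04 to 3.60) and 1.72 CPM of Fgfr4 (1.17 to 2.42). For both genes the d16 Dppa5a-high and Dppa5a-low cells lay above these intervals. In the d16+10p home cluster only 0.345% of thinned cells had a Fgfr4 read (0.0712 to 1.00%), so that its expression there was not detectable above background.

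By cluster, Fgfr2, Fgfr3 and Fgfr4 were each highest in the neural progenitor-like cluster, at 52.7 CPM (49.6 to 56.1) for Fgfr2, 28.0 CPM (25.7 to 30.4) for Fgfr3 and 16.3 CPM (14.5 to 18.2) for Fgfr4. Fgfr2 was also high in the Col3a1 fibroblast-like cluster, at 44.3 CPM (40.4 to 48.6), and it was at 18.1 CPM (15.7 to 20.7) in the mesendoderm-like cluster. Among the other 14 clusters of at least 100 cells, Fgfr3 did not exceed 7.22 CPM and Fgfr4 did not exceed 3.89 CPM. The small cluster 15, of 74 cells in all, had 18.6 CPM of Fgfr3 (9.63 to 32.6) in its 61 d16 cells, from 12 reads.

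How primed and naive cells differ was asked first. Ratios are of the primed home to the naive home cluster, with 1 CPM added to both, and a gene counts as past 2-fold only if it had at least 100 reads in both groups together. Of the 9 genes 7 had enough reads, and 3 were at least 2-fold higher, where 4.66% of all 12314 such genes were. Fgf15 had a log2 ratio of 4.05 (3.67 to 4.43), Fgf8 of 3.58 (3.24 to 3.93) and Fgf5 of 1.62 (1.39 to 1.86). Fgf4 alone was lower, at -2.89 (-3.26 to -2.53), where 7.69% of all genes were at least 2-fold lower. The median was 0.35 over these 7 genes and 0.01 over all genes. Fgfr1 was 1.27-fold higher (log2 ratio 0.35, 0.20 to 0.50), and the intervals of Fgf2 (-0.26, -0.72 to 0.20) and Fgfr2 (0.14, -0.29 to 0.58) held 0. Fgfr3 and Fgfr4 had fewer than 100 reads. Counting each thinned cell once took Fgf5 to 0.78, below 2-fold. Over all cells with the 2 tags the ratios were smaller, at 2.60 for Fgf15, 2.44 for Fgf8 and 1.10 for Fgf5, each still past 2-fold, and Fgf2 turned from -0.26 to 0.26.

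The d8 population, used whole, was set against the same primed home cluster, which leaves out cells of other clusters with the primed tag. The sides thus differ in which cells they include, and the part of feeder cells was not tested. All 9 genes had enough reads. Only Fgf2 was at least 2-fold higher, at a log2 ratio of 2.42 (2.07 to 2.78), where 11.6% of all genes were. Fgf15, at -2.65 (-2.78 to -2.52), and Fgf8, at -1.80 (-1.93 to -1.68), were at least 2-fold lower, where 5.64% of all genes were. Fgf5 went the other way, 1.5-fold higher at 0.59 (0.46 to 0.72), as did Fgfr1 at 0.56 (0.46 to 0.67). The median was -0.32 over the 9 genes and 0.16 over all genes. Against all cells with the primed tag Fgf2 was at 1.62, and Fgfr2 turned from 0.36 (0.04 to 0.69) to -0.77.

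The cell types of d8 moved with these values. Of the 9 fibroblast markers 8 were at least 2-fold higher in d8 than in the primed home cluster, with a summed level of 1549 against 456 CPM and no marker at 0. Markers of other cell types were higher in d8 as well, at least 2-fold for 7 of 8 macrophage markers (summed level 2990 against 265 CPM), 6 of 8 epithelial markers (2738 against 585 CPM) and 5 of 6 smooth muscle markers (1167 against 245 CPM), again with none at 0. The part of these 3 lists in the d8 values was not tested. The fibroblast-like cluster 0 held 22.6% of d8 cells but 77.8% of the Fgf2 reads and 53.2% of the Fgfr1 reads of d8. The 70 primed-tagged cells of cluster 0 had 80.2 CPM of Fgf2 (62.7 to 101). Whether cluster 0 holds MEF feeders was not tested. Without this cluster Fgf2 in d8 was at 8.71 CPM (8.22 to 9.22), a log2 ratio of 0.78, and Fgfr1 was at 69.6 CPM (68.2 to 71.0), a log2 ratio of -0.10. Neither gene was then past 2-fold higher, and Fgf8 and Fgf15 still were lower, at -1.49 and -2.39.

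The Fgf5 of d8 came from several clusters. The epithelial-like cluster gave 31.9% of its reads, the mesendoderm-like cluster 26.7% and cluster 2 19.2%, where these clusters held 20.4%, 7.03% and 15.6% of d8 cells. Of the Fgf8 reads, 34.3% came from cluster 2 and 29.5% from the mesendoderm-like cluster. Of the Fgf15 reads, 53.6% came from cluster 2. Without the mesendoderm-like cluster Fgf5 in d8 was at 57.0 CPM (55.9 to 58.1), still above the interval of the primed home cluster. It was not above the level over all cells with the primed tag, at 60.8 CPM (58.0 to 63.8).

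**Figure D4:**
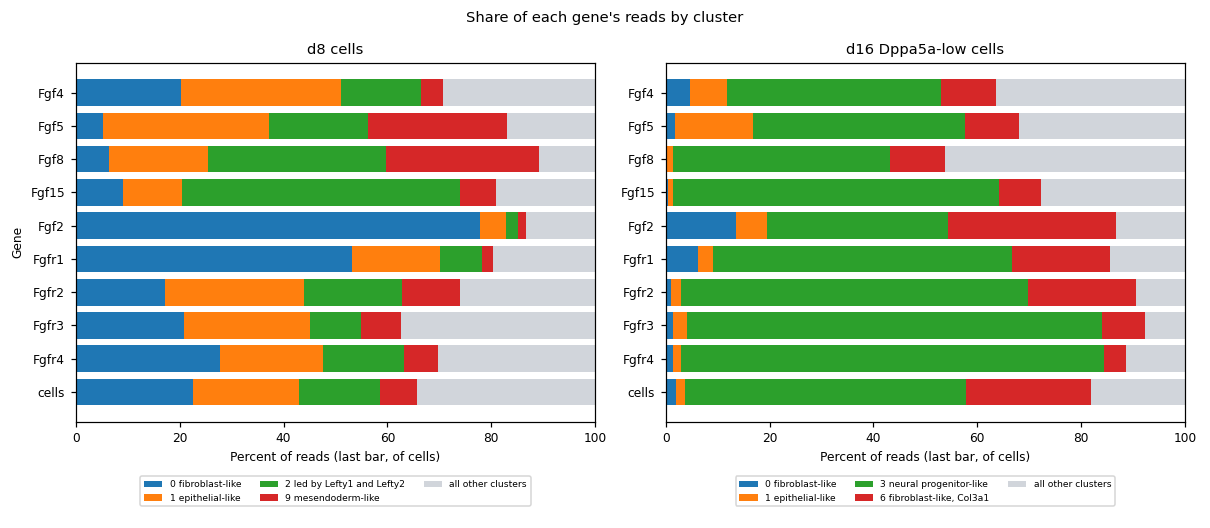
Percent of each gene's reads (x axis, 0 to 100) that came from each cluster, in d8 cells (left) and d16 Dppa5a-low cells (right); the last bar of each panel gives the percent of cells. Fgf2 in d8 came mostly from the fibroblast-like cluster 0 (77.8%), and Fgfr3 and Fgfr4 in d16 Dppa5a-low cells mostly from the neural progenitor-like cluster (80.0% and 81.4%).

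Cells with the primed tag were also found in the clusters that d8 cells made up. More cells bore this tag than had been collected, and those outside the home cluster may be wrongly tagged or be feeder cells. This was not tested, so the values below compare tags and not known populations. In cluster 2 there were 447 cells with the primed tag and 1502 with the d8 tag, with median depths of 12238 and 11429 reads. There Fgf15 was at 79.5 CPM in primed-tagged and 41.4 CPM in d8-tagged cells, a log2 ratio of 0.92 (0.76 to 1.08). Fgf5 was at 71.5 and 123 CPM, a log2 ratio of -0.78 (-0.93 to -0.64). Fgf8 was at 51.6 and 49.8 CPM, a log2 ratio of 0.05 (-0.13 to 0.23), so that only its interval held 0. In the mesendoderm-like cluster, with 71 primed-tagged and 677 d8-tagged cells, Fgf5 was again lower in primed-tagged cells, at 255 against 378 CPM (log2 ratio -0.57, -0.75 to -0.39). Fgf15 was at 19.8 against 11.6 CPM (0.72, 0.02 to 1.37), and Fgf8 at 117 against 94.2 CPM (0.31, 0.03 to 0.58). In the epithelial-like cluster, with 148 primed-tagged and 1962 d8-tagged cells, Fgf5 went the other way, at 128 against 105 CPM (0.28, 0.12 to 0.44), and the intervals of Fgf8 (0.29, -0.13 to 0.70) and Fgf15 (0.30, -0.38 to 0.94) held 0. The direction of Fgf5 thus differed between clusters.

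The d16 Dppa5a-high cells were then set against the primed home cluster, which this comparison shares with the 2 above. Of the 8 genes with enough reads, only Fgf4 was at least 2-fold higher, at 2.42 (2.06 to 2.78), where 10.3% of all genes were. Fgf15 was lower at -3.60 (-3.88 to -3.33), Fgf8 at -3.38 (-3.65 to -3.12) and Fgf5 at -1.49 (-1.68 to -1.29), where 3.27% of all genes were at least 2-fold lower. The median was -0.01 over the 8 genes and 0.11 over all genes. Fgfr1 was slightly lower at -0.32 (-0.45 to -0.19), Fgfr3 was higher at 0.55 (0.12 to 0.98), and the intervals of Fgf2 (0.30, -0.12 to 0.72) and Fgfr2 (0.30, -0.07 to 0.68) held 0. Over all cells with the primed tag these last 2 turned to -0.50 and -0.82.

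Within d16, Dppa5a-high and Dppa5a-low cells, which came through the same treatment, were compared with each other. Fgf4 was at least 2-fold higher in Dppa5a-high cells, at 3.27 (3.02 to 3.51), where 10.2% of all genes were. At least 2-fold lower were Fgfr2 at -2.14 (-2.35 to -1.93), Fgfr3 at -1.31 (-1.55 to -1.07), Fgfr4 at -1.21 (-1.50 to -0.92) and Fgf15 at -1.16 (-1.45 to -0.87), where 16.2% of all genes were. Fgfr1 was lower by less, at -0.67 (-0.76 to -0.58), as were Fgf5 at -0.70 (-0.87 to -0.53), Fgf8 at -0.55 (-0.84 to -0.26) and Fgf2 at -0.52 (-0.79 to -0.26). The median was -0.70 over the 9 genes and -0.06 over all genes.

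The receptor values of Dppa5a-low cells moved with the neural progenitor-like cluster, which held 54.1% of these cells. It gave 81.4% of their Fgfr4, 80.0% of their Fgfr3 and 66.9% of their Fgfr2 reads. Of the 7 neural progenitor markers 6 were at least 2-fold higher in Dppa5a-low cells and 1 at least 2-fold lower, with a summed level of 985 against 693 CPM and no marker at 0. All 9 fibroblast markers were at least 2-fold higher in Dppa5a-low cells, at 3611 against 555 CPM. Without this cluster Fgfr3 was at 7.06 CPM (5.87 to 8.42) and Fgfr4 at 3.93 CPM (3.06 to 4.97) in the remaining 1394 cells, and the log2 ratios were -0.09 and 0.02. Fgfr2 remained past 2-fold at -1.56, with 26.0 CPM (23.6 to 28.5), and Fgf15 came to -0.77. Counting each thinned cell once also took Fgf15 below 2-fold, to -0.43.

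The last comparison asked how the expanded cells differ from naive cells, by the ratio of the d16+10p home to the naive home cluster, the latter also used in the first comparison. None of the 8 genes with enough reads was past 2-fold, where 1.16% of all genes were higher and 1.22% lower. Fgf4 was 1.18-fold higher, at a log2 ratio of 0.24 (0.09 to 0.38), and Fgfr2 1.49-fold higher, at 0.58 (0.24 to 0.93). The intervals of Fgf5 (-0.05, -0.29 to 0.20), Fgf8 (-0.17, -0.59 to 0.25), Fgf15 (0.19, -0.27 to 0.64), Fgf2 (-0.29, -0.66 to 0.09), Fgfr1 (0.09, -0.04 to 0.22) and Fgfr3 (0.15, -0.28 to 0.58) held 0. Fgfr4 had fewer than 100 reads. The median was 0.12 over the 8 genes and 0.03 over all genes. With cells thinned to 5000 reads 1 gene, Fgfr2, was past 2-fold, at 1.17.

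**Figure D5:**
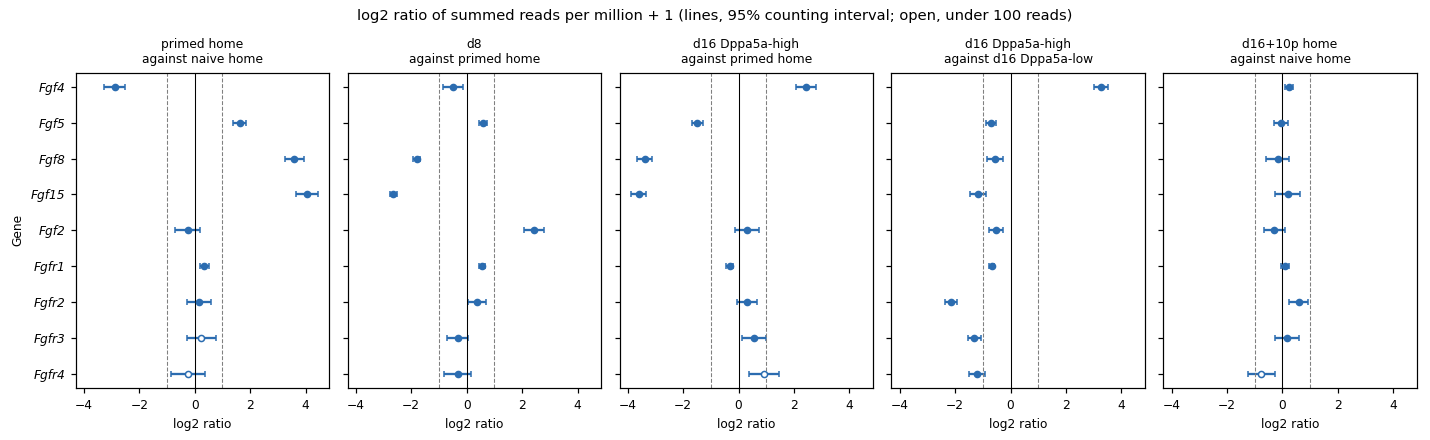
log2 ratio of CPM + 1 (x axis) of the 9 genes (y axis) in the 5 comparisons, with 95% counting intervals as lines; dashed lines mark 2-fold and open points had fewer than 100 reads. Fgf4 lies opposite to Fgf8 and Fgf15 in the panels of primed home against naive home and of d16 Dppa5a-high against primed home, and in the last panel all 9 genes lie within 2-fold.

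The genes around the ligands and receptors were described by 5 further lists, counted by the same 2-fold rule. Of 13 ERK feedback and target genes, 3 were at least 2-fold higher and 1 lower in the primed home than in the naive home cluster, beside 4.66% and 7.69% of all genes. The ERK phosphatase Dusp6 was at 106 against 25 CPM (log2 ratio 2.04, 1.86 to 2.22), and the receptor antagonist Il17rd at 95.4 against 20.5 CPM (2.17, 1.98 to 2.36). The immediate early gene Egr1 was lower, at 290 against 721 CPM (-1.31, -1.37 to -1.25). In d16 Dppa5a-high cells against the primed home cluster 2 of the 13 were lower and 0 higher, beside 3.27% and 10.3% of all genes, with Il17rd at -2.02 (-2.18 to -1.87) and Dusp6 at -1.78 (-1.92 to -1.64). Egr1 went the other way and lay just under the cut, at 580 against 290 CPM (1.00, 0.94 to 1.06). In the d16+10p home against the naive home cluster, 0 of 13 passed in either direction, beside 1.16% of all genes higher and 1.22% lower. Both of these populations were kept in 2iL, and the part of its MEK inhibitor in the values of these ERK genes was not tested. At d8, 1 was higher (Dusp4, 1.25, 1.04 to 1.46) and 2 were lower, beside 11.6% and 5.64% of all genes, among them the ETS factor Etv5 at -1.77 (-1.87 to -1.66). Within d16, 2 were higher and 6 lower in Dppa5a-high cells, beside 10.2% and 16.2% of all genes. Etv5 was at 161 against 22.9 CPM (2.76, 2.65 to 2.87), and Fos at 357 against 1820 CPM (-2.35, -2.38 to -2.31).

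Of the 17 adaptors and kinases between receptor and ERK, 16 to 17 had enough reads, and at most 2 passed 2-fold in any comparison. Of all genes, 1.16 to 11.6% were at least 2-fold higher and 1.22 to 16.2% lower, depending on the comparison. Among those of at least 20 CPM the adaptor Gab1 had the largest ratio in 4 of the 5 comparisons. It was at 10.5 CPM in the primed home and 87.3 CPM in the naive home cluster (log2 ratio -2.95, -3.23 to -2.68). In d16 Dppa5a-high cells it was at 80.3 CPM (2.83 against the primed home cluster, 2.56 to 3.10), and in d8 at 29.6 CPM (1.42, 1.16 to 1.68). In the d16+10p home cluster it was at 64.6 CPM, within 2-fold of the naive home cluster (-0.43, -0.54 to -0.32).

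FGF coreceptors and binding proteins, such as the heparan sulfate proteoglycans of the syndecan and glypican families, moved most at d8 and within d16. At d8, 17 of 18 genes had enough reads. Of these, 9 were at least 2-fold higher and 0 lower than in the primed home cluster, beside 11.6% and 5.64% of all genes. Flrt2 was at 110 against 15.0 CPM (log2 ratio 2.79, 2.57 to 3.01), Gpc4 at 54.8 against 16.2 CPM (1.69, 1.48 to 1.91) and the secreted binding protein Fgfbp1 at 89.7 against 28.2 CPM (1.63, 1.47 to 1.80). In d16 Dppa5a-high against Dppa5a-low cells 8 of 18 were lower and 1 higher, beside 16.2% and 10.2% of all genes, with Gpc3 at 66.6 against 306 CPM (-2.18, -2.26 to -2.10). The syndecan Sdc4 was at 210 CPM in d16 Dppa5a-high and 48.8 CPM in primed home cells (2.08, 1.95 to 2.22).

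Of 12 genes of heparan sulfate synthesis and editing, 6 of the 11 with enough reads were lower in d16 Dppa5a-high than in Dppa5a-low cells and 0 higher, beside 16.2% and 10.2% of all genes. The sulfatase Sulf1 was at 84.8 against 620 CPM (log2 ratio -2.86, -2.93 to -2.79). The sulfotransferase Hs6st1 was at 12.1 CPM in the primed home and 29.6 CPM in the naive home cluster (-1.23, -1.51 to -0.94), and at 30.9 CPM in d16 Dppa5a-high cells (1.29 against primed home, 1.02 to 1.56). None of the 11 with enough reads passed in the d16+10p home against the naive home cluster, beside 1.16% of all genes higher and 1.22% lower. Of the 17 other FGF ligands between 2 and 9 had enough reads, and Fgf7 was the only one past 20 CPM, at 23.7 CPM in d8 and 4.87 CPM in the primed home cluster (2.07, 1.73 to 2.43).

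The genes whose levels ran most like each of the 9 over the 15 clusters were found among 6855 genes that reached 50 CPM in some cluster. The measure was Pearson's r of log2(CPM + 1), and it is a description, since the clusters share 1 library and differ in depth. For Fgf4 these were Gdf3 (r = 0.977), Triml2 (0.973) and Nr5a2 (0.970), for Fgf8 Lefty1 (0.912), Car2 (0.884) and Gdi2 (0.839), and for Fgf2 Thy1, Grem1 and Osmr (0.953 each). For Fgf5 they were Atp10d (0.863), Prtg (0.859) and Cgn (0.853), and for Fgf15 Tdrkh (0.873), Kcnj3 (0.852) and Isyna1 (0.850). Among the receptors, Fgfr1 ran with Pvr (0.882), Cpxm1 (0.836) and Steap2 (0.823), and Fgfr2 with Col23a1 (0.909) and Lbp (0.889). Fgfr3 ran with Celsr1 (0.931), Fgb (0.921) and Efnb3 (0.919), and Fgfr4 with Rfx4 (0.904), Efnb3 (0.902) and Aqp4 (0.884).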

How the data were processed

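The deposited file holds raw counts, whole numbers of reads per gene and cell. Per the study's methods, the authors trimmed reads with cutadapt 2.10, mapped them with Bowtie2 2.3.4.1 to Ensembl transcripts, coding and non-coding, of GRCm38.p6, counted reads per cell barcode, and assigned each cell to its highest tag and removed cells with mixed tags as doublets. No molecular identifiers are described, so reads of 1 molecule are not independent, and intervals cover counting error only. A second library held the tags. The tag in each cell's name gave its population.

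Cells were to have 500 genes or more, with no more than 20% of reads mitochondrial, which removed 0 cells. Clustering used Seurat 5.3.0 under R 4.3.3 (2000 variable genes without the 86 pathway genes, 56 principal components, 50 neighbours, resolution 0.8), giving 18 clusters, 4 of them Pou5f1-high (at least 25% of the highest cluster's level and a read in 75% of cells). Names ending in -like rest on marker lists, and can differ from the study's. Levels, intervals and ratios (pseudocount 1 CPM) were computed in Python 3.11.15, and ratios and their intervals were tried on simulated Poisson counts. Such counts follow the model of the intervals, so the trial does not cover reads that gather in few cells. The alternative TMM scaling used edgeR 4.0.16. Named genes are the 9 members, genes with the largest ratio of each pathway list (at most 3 per comparison, at least 20 CPM), and the 3 most alike by cluster, of which 1 is not reported here. Cut-offs and lists were chosen with earlier results of these data known.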

Additional observations from a re-analysis of the deposited data

How the results depend on the processing

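The counts of genes past 2-fold were recomputed under 64 combinations of comparison and alternative setting; 54 gave the same number and 6 others stayed within 1.5 times. Within d16 the count fell from 5 to 2 (1 higher, 1 lower) with a pseudocount of 10 CPM, which shrinks ratios of low genes by construction. It was also 2 without the neural progenitor-like cluster in Dppa5a-low cells, where Fgfr4 changed sign, from -1.21 to 0.02. For d16+10p home against naive home the count went from 0 to 1, both with cells thinned to 5000 reads and with each thinned cell counted once; the cause was not tested. Leaving out the fibroblast-like cluster of d8 and the neural progenitor-like cluster of d16 were alternatives chosen after seeing the data. Of 576 recomputed ratios of single genes, 486 lay within the main counting interval, 89 outside it, and 1 past 2-fold changed sign. All 45 shares of cells with a read were above their thinned interval without thinning. A cell filter of more than 2000 and fewer than 8000 genes left 15628 cells, and a stricter one, from 1500 genes upward and with no more than 10% of reads mitochondrial, left 17256. No paired analysis was possible because each population is 1 sample. With no replicates, spread between cultures, line and medium cannot be separated from the differences given.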

Other observations

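Detection of 2 genes in the same cell was counted after thinning to 5000 reads, over cells of 1 library that differ in depth before thinning, and no test was made. In the primed home cluster 87 of 406 cells had a Fgf8 read and 75 had a Fgf15 read, and 30 had both, which was 34.5% of the Fgf8 cells and 40% of the Fgf15 cells. Of the cells without a Fgf8 read, 14.1% had Fgf15. Fgf5 and Fgf15 were found together in 6 cells, 11.1% of the 54 Fgf5 cells, and 19.6% of the cells without a Fgf5 read had Fgf15. In the naive home cluster 27 of 506 cells had both Fgf4 and its receptor gene Fgfr1, 32.1% of the 84 Fgf4 cells and 23.7% of the 114 Fgfr1 cells. Of the naive home cells without Fgf4, 20.6% had Fgfr1. In d16 Dppa5a-high cells 29.1% of the 148 Fgf4 cells and 24.2% of those without Fgf4 had Fgfr1. In the d16+10p home cluster 47 of 870 cells had both, 24.5% of the 192 Fgf4 cells, and of the cells without Fgf4 25.1% had Fgfr1.

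Several of the other FGF ligands were low over whole populations but reached higher levels in single clusters. Fgf7, a ligand made by mesenchyme, was at 75.4 CPM (73.0 to 77.9) in the fibroblast-like cluster 0 and at 24.0 CPM (21.1 to 27.2) in the Col3a1 fibroblast-like cluster. Fgf18 was at 19.0 CPM (14.3 to 24.7) in the cluster led by Krt15, where the next cluster had 2.21 CPM (1.70 to 2.82). Fgf13, an intracellular FGF homologue, was at 55.0 CPM (44.7 to 66.9) in the neuron-like cluster. These 3 genes were picked after their values were seen.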
